A study of Mus musculus with 23 samples.

Results

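The expression of 10 genes of the macrophage was followed across the ovaries of 3 inbred mouse strains on 2 diets. The genes were chosen by symbol from the deposited expression table and are the 3 chains of complement C1q (C1qa, C1qb and C1qc) and 7 macrophage marker genes (Adgre1, Csf1r, Cd68, Mrc1, Mpeg1, Fcgr1 and Cd163). All 10 were among the 24716 genes of the table and passed the filter on low counts, which kept 20189 genes. Whole ovary RNA of wild type females was sequenced in 23 libraries. NZO/HlLtJ, a strain prone to obesity and diabetes, gave 4 libraries on 44% fat and 4 on 10% fat. CAST/EiJ, derived from wild castaneus mice, gave 4 libraries on 44% fat and 4 on 10% fat. C57BL/6J, the common laboratory strain, gave 4 libraries on 44% fat and 3 on 10% fat. Both diets contained fiber and were fed from week 6 of age until the ovaries were taken in week 15. Sugar was also raised in the 44% fat diet, and effects of fat and of sugar cannot be told apart. The labels give neither the stage of the oestrous cycle nor whether each library is 1 animal, so the p-values rest on differences among libraries that may be technical replicates.

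Complement C1q is the recognition protein of the classical complement pathway. Its A, B and C chains assemble into a bundle of collagen-like stalks with globular heads that bind antibody complexes, dying cells and other targets, and the bundle then activates the proteases C1r and C1s. Most complement proteins come from the liver, but C1q is made mainly by tissue macrophages and related myeloid cells. Macrophages lie in the stroma of the ovary, around follicles that degenerate and in corpora lutea, the glands left after ovulation, where they take up dying cells. Among the other genes, Csf1r encodes the receptor for the growth factors CSF1 and IL-34 on which macrophages depend, and Adgre1 encodes F4/80, the surface protein by which mouse macrophages are usually stained. Cd68 encodes a glycoprotein of lysosomes, Mpeg1 the pore-forming protein perforin-2, Mrc1 the mannose receptor, Cd163 the receptor for haemoglobin bound to haptoglobin, and Fcgr1 the high-affinity receptor for IgG.

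On build GRCm38, the 3 C1q genes lie next to each other on the minus strand of chromosome 4, with C1qb at chr4:136880129-136886187, C1qc at chr4:136889804-136893065 and C1qa at chr4:136895917-136898803. The markers are scattered, with Mrc1 at chr2:14229392-14332057 on the plus strand and Cd163 at chr6:124304656-124330527 on the plus strand. Promoter sequence was taken from the RefSeq promoter table (build GRCm38.p6), and windows of 7 of the 10 genes were used. C1qa and Adgre1 had no window there, and Csf1r was left out. The 250 bases before the start that RefSeq gives are shown for C1qb and C1qc, whose levels stayed close to each other in every library, for Mrc1, which stood higher relative to C1q in NZO/HlLtJ, and for Cd163, the member that followed C1q least between libraries. The RefSeq start is not always the end of the gene as annotated above, so 151 bases of the C1qc window and 22 bases of the Mrc1 window lie inside the annotated gene. Each runs 5′ to 3′ on the strand of its gene, and capitals mark GAGGAA, the core bound by the myeloid factor PU.1 (TTCCTC where it lies on the other strand), and TGCTGA, an element bound by MAF factors.

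C1qb, chr4:136886201-136886450, minus strand: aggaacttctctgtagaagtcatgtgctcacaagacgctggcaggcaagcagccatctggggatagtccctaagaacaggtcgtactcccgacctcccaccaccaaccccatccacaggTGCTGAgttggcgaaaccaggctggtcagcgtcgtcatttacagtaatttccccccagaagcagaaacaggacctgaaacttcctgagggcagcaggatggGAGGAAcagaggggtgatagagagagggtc

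C1qc, chr4:136892915-136893164, minus strand: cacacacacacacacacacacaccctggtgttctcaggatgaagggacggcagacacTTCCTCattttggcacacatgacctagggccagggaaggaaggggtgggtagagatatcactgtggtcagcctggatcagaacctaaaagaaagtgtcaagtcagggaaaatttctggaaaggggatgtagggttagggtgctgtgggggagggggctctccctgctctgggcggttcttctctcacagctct

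Mrc1, chr2:14229164-14229413, plus strand: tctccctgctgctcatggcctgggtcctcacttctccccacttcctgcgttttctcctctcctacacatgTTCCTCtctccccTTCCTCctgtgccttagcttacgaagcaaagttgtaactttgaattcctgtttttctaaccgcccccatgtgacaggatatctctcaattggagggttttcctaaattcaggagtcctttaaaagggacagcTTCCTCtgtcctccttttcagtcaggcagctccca

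Cd163, chr6:124304401-124304650, plus strand: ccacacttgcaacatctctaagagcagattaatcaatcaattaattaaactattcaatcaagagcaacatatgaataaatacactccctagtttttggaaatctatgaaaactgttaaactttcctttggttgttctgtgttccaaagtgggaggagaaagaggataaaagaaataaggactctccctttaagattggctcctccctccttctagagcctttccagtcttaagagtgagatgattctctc

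Read on both strands, GAGGAA was present in 5 of the 7 windows, those of C1qb, C1qc, Cd68, Mrc1 and Fcgr1, and in 23.3% of all 32851 promoter windows of the same length. In the C1qb window it began 30 bases before the start, and in the Mrc1 window it occurred 3 times, at 180, 167 and 35 bases before the start. TGCTGA was present in the C1qb window, 131 bases before the start, and in 16.1% of all windows. The composite site of PU.1 with an IRF factor, the TATA box (TATAAA) and the E-box core of lysosomal genes (CACGTG) were in none of the 7, against 2.3%, 12.4% and 6.02% of all windows. No 2 of these matches overlapped. A match is a run of letters in the RefSeq sequence, and binding there was not measured.

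Levels are given as CPM, the count of a gene relative to the library total after scaling by TMM factors. Library totals were 31938792 to 45850830 estimated counts. CAST/EiJ 10% fat replicate 2 stood apart, with summed levels of 5091 CPM over 6 oviduct epithelium markers and 549 CPM over 5 white adipocyte markers, where the other libraries reached at most 230.0 and 187 CPM. The 230.0 CPM belonged to C57BL/6J 44% fat replicate 1. Calls of the 10 genes in comparisons that use either library are given with and without both. Library identifiers fall into 3 number series (76, 82 and 90) whose meaning no label gives. Series 76 holds all 6 groups and the others only some, and differences within the series that hold both groups are given beside the main results. Each such difference rests on 1 or 2 libraries per group, so counts of members within a series are descriptive.

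**Figure D1:**
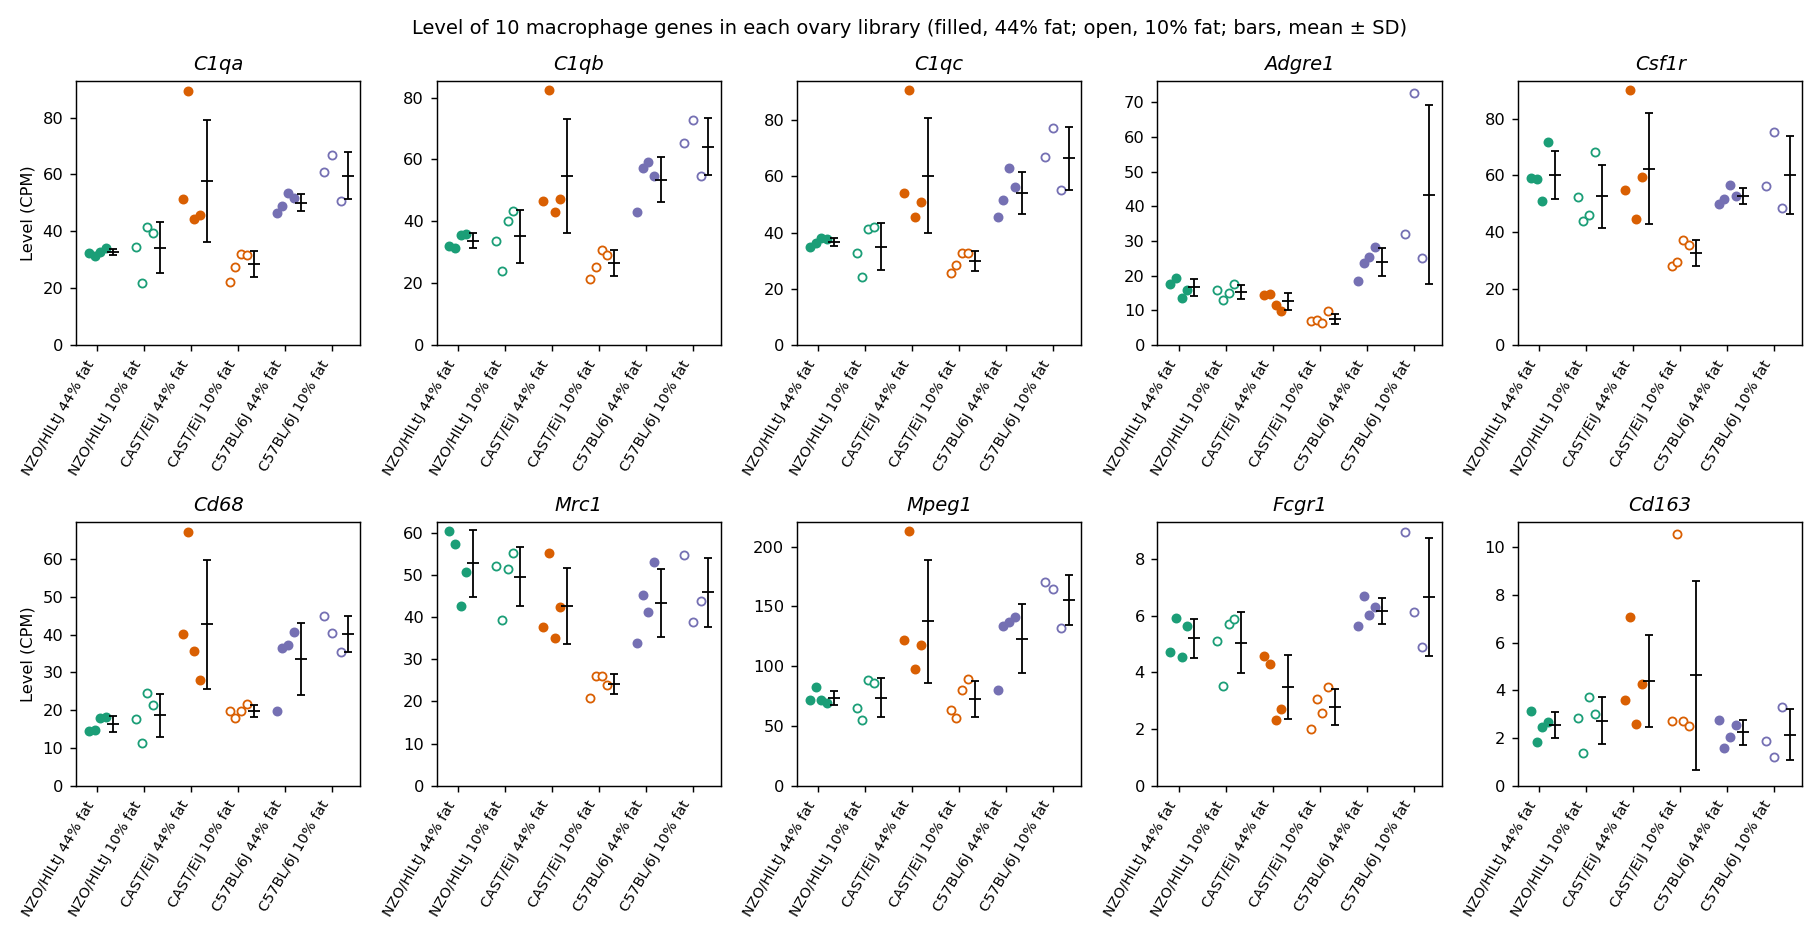
Level in CPM (vertical axis, each panel with its own scale) of the 10 genes in each of the 23 libraries. Filled points are 44% fat, open points 10% fat, and bars show the mean ± SD of each group. For 8 of the 10 genes the CAST/EiJ 10% fat group had the lowest mean, and CAST/EiJ 44% fat replicate 2 was the highest of all libraries for 6 genes.

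Every member was detected in every library, and the lowest single value was 50 counts, for Cd163 in C57BL/6J 10% fat replicate 2. Levels per kilobase of exon, which allow genes of different length to be compared, were highest for C1qa and C1qb, with means over the 23 libraries of 41.4 and 40.3 CPM per kilobase. Mpeg1, C1qc and Cd68 followed at 24.0, 23.9 and 22.3 CPM per kilobase. Csf1r, Mrc1 and Adgre1 lay at 9.20, 6.73 and 5.84, and Fcgr1 and Cd163 were the lowest at 1.86 and 0.577 CPM per kilobase. The label of the set was checked against other immune markers. Summed over the list, 5 T cell markers reached at most 8.002 CPM in NZO/HlLtJ, 4.05 CPM in CAST/EiJ and 8.02 CPM in C57BL/6J, and 4 B cell markers at most 5.42, 3.53 and 5.49 CPM in the same order of strains. Of 5 neutrophil markers, Retnlg, Ngp and Camp were below the filter, and the list summed to at most 3.53 CPM in any library. Timd4, a marker of long-lived resident macrophages, averaged 0.728 ± 0.296 and 0.776 ± 0.146 CPM in NZO/HlLtJ on 44% and 10% fat, and its group means in the other strains were at most 0.275 CPM. Dendritic cell markers, 5 in number, summed to 33.6 to 68.3 CPM, and the members are shared in part by such cells and by monocytes. None of the 10 genes separates resident macrophages from recruited ones. In whole tissue fewer cells of a type and less RNA per cell cannot be told apart.

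The 3 C1q chains kept a nearly fixed balance while the level of C1qa differed 4.10-fold between its lowest and highest library. The log2 ratio of C1qa to C1qb in CPM averaged -0.02 with an SD of 0.11 over 23 libraries, between -0.23 and 0.15, whereas the SD of the log2 level was 0.49 for C1qa and 0.52 for C1qb. For C1qa to C1qc the SD of the log2 ratio was 0.08, and for C1qb to C1qc it was 0.09. By strain, the mean log2 ratio of C1qa to C1qb was -0.04 and -0.05 in NZO/HlLtJ on 44% and 10% fat, 0.07 and 0.09 in CAST/EiJ, and -0.09 and -0.11 in C57BL/6J. The summed level of the chains ran from 69.3 CPM in CAST/EiJ 10% fat replicate 1 to 262 CPM in CAST/EiJ 44% fat replicate 2, the lowest and highest libraries of the series.

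**Figure D2:**
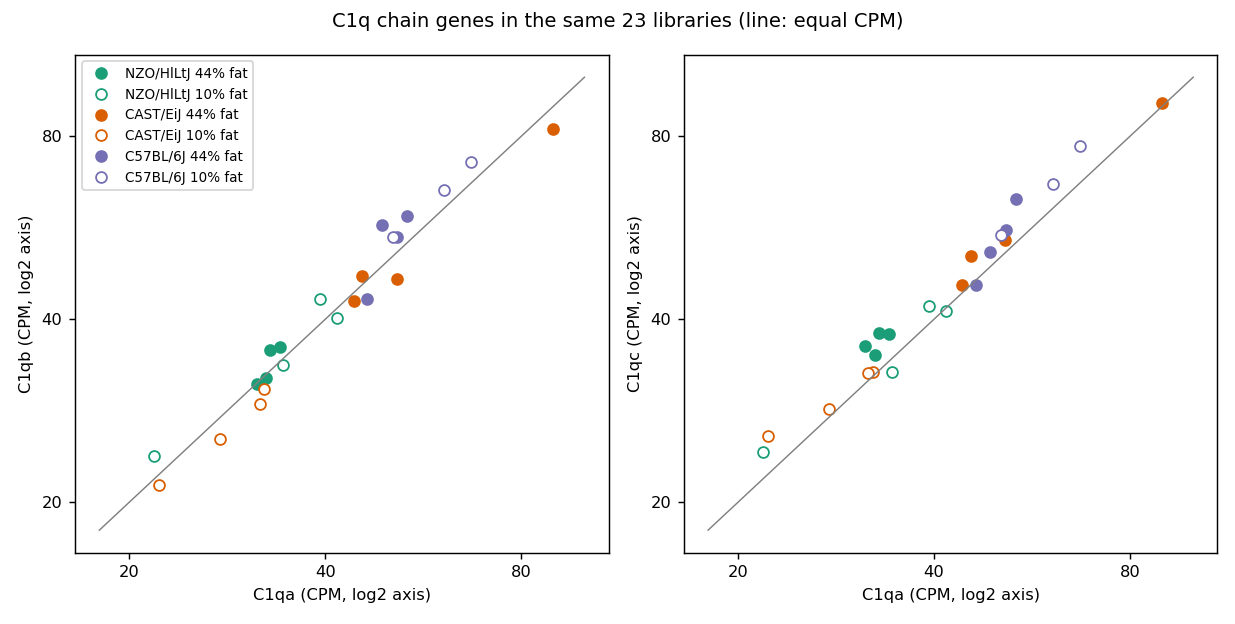
CPM of C1qb (left) and C1qc (right) against C1qa in the same 23 libraries, on log2 axes, with the line of equal CPM. Colours are strains, filled points 44% fat and open points 10% fat. All points lie close to the line, from 21.8 CPM of C1qa in NZO/HlLtJ 10% fat replicate 2 to CAST/EiJ 44% fat replicate 2 at 89.4 CPM of C1qa.

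The first question is what the high fat, high sugar diet did within each strain. In CAST/EiJ the C1q chains and 3 of the 7 macrophage markers were higher on 44% fat, the C1q chains by 2.01- to 2.06-fold. C1qa measured 51.5, 89.4, 44.2 and 45.6 CPM on 44% fat, against 22.3, 27.6, 32.2 and 31.7 CPM on 10% fat. C1qb measured 46.5, 82.3, 42.9 and 47.1 CPM on 44% fat, against 21.4, 25.4, 30.7 and 29.0 CPM on 10% fat. C1qc measured 54.0, 90.5, 45.5 and 50.8 CPM on 44% fat, against 25.7, 28.5, 32.8 and 32.6 CPM on 10% fat. Every library on 44% fat exceeded every library on 10% fat for each chain, and replicate 2 lay far above the other 3 on 44% fat. In edgeR's quasi-likelihood fit over all 20189 genes, C1qa rose by 1.02 ± 0.20 on the log2 scale (SE, adjusted p = 0.0219), C1qb by 1.04 ± 0.19 (adjusted p = 0.0187) and C1qc by 1.01 ± 0.19 (adjusted p = 0.0187).

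Csf1r, the receptor for the growth factors of macrophages, measured 54.9, 90.2, 44.7 and 59.4 CPM in CAST/EiJ on 44% fat, against 28.0, 29.5, 37.2 and 35.5 CPM on 10% fat. The lysosomal Cd68 measured 40.2, 67.0, 35.7 and 27.9 CPM on 44% fat, against 19.9, 17.9, 19.7 and 21.7 CPM on 10% fat. The mannose receptor Mrc1 measured 37.7, 55.2, 35.1 and 42.3 CPM on 44% fat, against 20.9, 25.9, 26.0 and 24.0 CPM on 10% fat. Again the diets did not overlap, and replicate 2 was the highest on 44% fat for all 3 genes. In edgeR Csf1r rose by 0.94 ± 0.19 on the log2 scale (adjusted p = 0.0219), Cd68 by 1.11 ± 0.25 (adjusted p = 0.0473) and Mrc1 by 0.81 ± 0.16 (adjusted p = 0.0219). With the C1q chains this made 6 of 10 members higher and 0 lower, where 0.624% of all genes tested were called in either direction and 0.525% were higher. The call of Cd68 was lost in 23 of 30 alternatives, among them limma, the fit without the count filter and the fit with the identifier series, which called the other 5 genes.

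The other 4 members did not pass in CAST/EiJ. Perforin-2 (Mpeg1) had values without overlap, at 122, 213, 97.3 and 118 CPM on 44% fat, against 63.3, 56.7, 79.8 and 89.6 CPM on 10% fat, with a log2 fold change of 0.93 ± 0.22 (edgeR adjusted p = 0.0573). F4/80 (Adgre1) measured 14.5, 14.8, 11.5 and 9.82 CPM on 44% fat, against 6.90, 7.12, 6.38 and 9.78 CPM on 10% fat, at 0.75 ± 0.25 (edgeR adjusted p = 0.161). Thus the libraries of the diets did not overlap for 8 of the 10 genes, all higher on 44% fat, as for 4% of all genes tested. Fcgr1 measured 4.57, 4.30, 2.33 and 2.70 CPM on 44% fat, against 1.99, 3.04, 2.56 and 3.47 CPM on 10% fat (log2 fold change 0.33 ± 0.24, edgeR adjusted p = 0.599), and its diets overlapped. The haemoglobin receptor Cd163 measured 3.58, 7.07, 2.58 and 4.27 CPM on 44% fat, against 2.72, 10.6, 2.71 and 2.52 CPM on 10% fat (log2 fold change -0.08 ± 0.44, edgeR adjusted p = 0.962). Its highest library, at 10.6 CPM, was the one highest in oviduct and adipocyte RNA, and without both libraries highest in oviduct RNA the log2 fold change of Cd163 was 0.72.

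Calls in this comparison depended on CAST/EiJ 44% fat replicate 2 and on the other strains in the fit. Without that library 0 of 10 members passed. The log2 fold changes of the 6 genes stayed between 0.67 for Mrc1 and 0.81 for Cd68, with C1qb at 0.78 and an edgeR adjusted p of 0.0578. The effect of its high values and that of having fewer libraries were not separated. In a fit of the CAST/EiJ libraries alone 0 members passed, at a log2 fold change of 1.04 for C1qb and an adjusted p of 0.244, and without both libraries highest in oviduct RNA 3 passed, which were C1qb, C1qc and Mrc1. Within identifier series the log2 difference of C1qb was 1.12 in series 76, 1.23 in series 82 and 0.66 in series 90. In the same order of series, 10, 9 and 9 of the 10 members were higher on 44% fat. Series 76 held 1 library per diet, series 82 held 2 on 44% fat and 1 on 10% fat, and series 90 held 1 and 2. The 10% fat library of series 82 was the one highest in oviduct RNA, and replicate 2 on 44% fat was in series 82 too. The sum over 7 luteal cell markers was also higher on 44% fat. It was 3267, 2963, 3629 and 2304 CPM on 44% fat, against 1285, 2021, 1492 and 1004 CPM on 10% fat, without overlap, although 0 of 7 passed in edgeR, and 1 of 7 without both libraries highest in oviduct RNA. Among the 44% fat libraries, replicate 3 had the highest luteal sum and the lowest level of each C1q chain. The order of libraries within a diet cannot decide the part of luteal cells in the difference between diets. The adipocyte sum was 187, 135, 41.3 and 97.7 CPM on 44% fat, against 73.1, 549, 55.9 and 61.5 CPM on 10% fat. The part of luteal cells and of adipose tissue in the change of the macrophage genes was not tested.

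**Figure D3:**
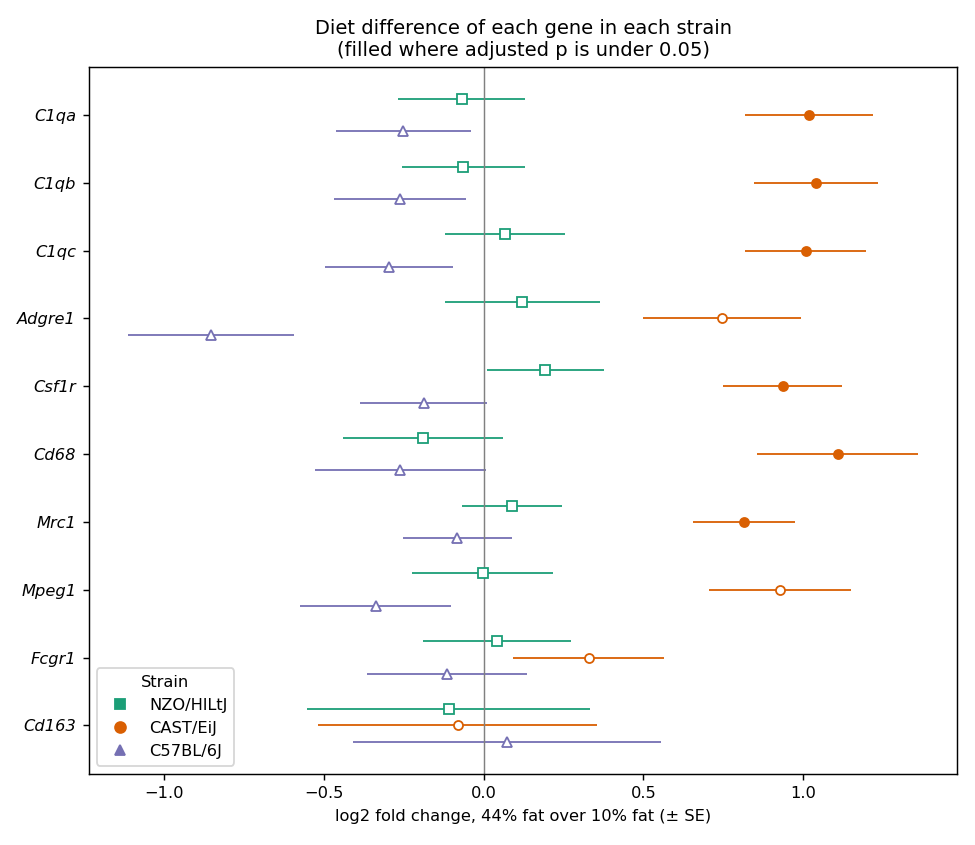
Log2 fold change of 44% over 10% fat (horizontal axis, ± SE) for each gene in NZO/HlLtJ (squares), CAST/EiJ (circles) and C57BL/6J (triangles), from edgeR. Filled symbols have an adjusted p under 0.05, which held for 6 genes in CAST/EiJ and for none in the other strains.

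In NZO/HlLtJ no member passed for diet. C1qb measured 32.1, 31.3, 35.6 and 36.0 CPM on 44% fat, against 33.6, 23.9, 40.3 and 43.3 CPM on 10% fat, with a log2 fold change of -0.06 ± 0.19. Csf1r measured 59.1, 58.7, 50.9 and 71.7 CPM on 44% fat, against 52.2, 43.9, 45.98 and 68.3 CPM on 10% fat, and had the smallest p of the 10 genes, at 0.19 ± 0.18 (edgeR adjusted p = 1). The libraries of the diets overlapped for all 10 genes, where 1.32% of all genes were higher and 1.64% lower without overlap. In edgeR 0 members and 0% of all genes passed in this strain, and an unadjusted p under 0.05 was reached by 0 members and by 3.52% of all genes. DESeq2 and limma called 0 members too. Within identifier series 76, the one of this strain with both diets, all 10 members were higher on 44% fat, at a median of 0.31 log2 units. Spread within a diet differed for the C1q chains, with C1qa at 32.7 ± 1.12 CPM on 44% fat and 34.3 ± 8.84 CPM on 10% fat (SD, n = 4 each), where replicate 2 on 10% fat was the lowest library of the series for C1qa, C1qc, Cd68 and Mpeg1.

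In C57BL/6J, 9 of the 10 genes had a negative log2 fold change and 0 passed in edgeR. An unadjusted p under 0.05 was reached by 1 member, where 0% of all genes passed and 8.83% had an unadjusted p under 0.05. That gene was Adgre1, at 18.6, 23.6, 25.5 and 28.3 CPM on 44% fat, against 32.1, 72.7 and 25.2 CPM on 10% fat (log2 fold change -0.85 ± 0.26, adjusted p = 0.396). The value of 72.7 CPM was the highest Adgre1 level in the series, and without that library the log2 fold change was -0.26 (edgeR adjusted p = 0.563). C1qc measured 45.5, 51.5, 63.1 and 56.0 CPM on 44% fat, against 66.8, 77.1 and 55.1 CPM on 10% fat, and the diets overlapped for this and the other members, where 3.2% of all genes were higher and 4.88% lower without overlap (-0.30 ± 0.20, edgeR adjusted p = 0.699). For Mpeg1 and Cd68 the lowest value on 44% fat, 80.5 and 19.7 CPM, came from replicate 1, the library of this strain highest in oviduct RNA. Without both libraries highest in oviduct RNA, 0 members passed and 1 of the 10 had a positive log2 fold change, as with them. Within identifier series 76, with 1 library per diet, 1 of the 10 members was higher on 44% fat. The 44% fat library there was replicate 1. Within series 82, with 2 libraries per diet, 2 of the 10 were higher. Averaged over strains, 0 of 10 members and 0% of all genes passed. An unadjusted p under 0.05 was reached by 3 members and by 5.89% of all genes. Mrc1 had the smallest p there, at 0.27 ± 0.09 (edgeR adjusted p = 0.773).

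The difference between the diet effects of strains was tested directly. The diet effect in CAST/EiJ exceeded that in C57BL/6J for 4 of 10 members, against 0.614% of all genes tested in either direction and 0.565% in this one. C1qc had a difference of diet effects of 1.31 ± 0.28 on the log2 scale (edgeR adjusted p = 0.0376), C1qb of 1.30 ± 0.28 (adjusted p = 0.0421), Adgre1 of 1.60 ± 0.36 (adjusted p = 0.0472) and C1qa of 1.27 ± 0.29 (adjusted p = 0.0497). These 4 calls lie close to the threshold, and without C57BL/6J 10% fat replicate 2 the value of Adgre1 was 1.01 (adjusted p = 0.0354). DESeq2 called 8 members, while limma, run on the variance-stabilised table, and edgeR without the count filter called 2 each, the fit with the identifier series 1, and the fits of only the groups compared and without both libraries highest in oviduct RNA 0 each. Leaving out single libraries gave 0 to 5. The shares of all genes given above are those of the main fit. Between NZO/HlLtJ and CAST/EiJ, 0 members and 0.0149% of all genes passed for the difference of diet effects. An unadjusted p under 0.05 was reached by 7 members and by 11.4% of all genes in edgeR. C1qb had the smallest p there, at -1.10 ± 0.27 (edgeR adjusted p = 0.165), and DESeq2 called 3 members. Between NZO/HlLtJ and C57BL/6J, 0 members passed in edgeR and in DESeq2, and 0% of all genes passed in edgeR. An unadjusted p under 0.05 was reached there by 1 member and by 3.92% of all genes. That member was Adgre1, at 0.97 ± 0.36 (edgeR adjusted p = 0.9999), and at 0.39 without C57BL/6J 10% fat replicate 2. Without both libraries highest in oviduct RNA, 0 members passed in either of these comparisons and in the average over strains.

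The second question is how the strains differed on the same diet. The build named for the series is the C57BL/6J genome, and the part of reads lost to sequence differences in the other strains was not tested. On 10% fat 9 of the 10 genes were lower in CAST/EiJ ovaries than in C57BL/6J ovaries. In the fit 9 members passed as lower and 0 as higher, where 38% of all genes tested differed and 19.1% were lower. All libraries of CAST/EiJ lay below all of C57BL/6J for those 9 genes, as for 17.8% of all genes. F4/80 (Adgre1) had the largest log2 fold change of the 10 genes, at 6.90, 7.12, 6.38 and 9.78 CPM in CAST/EiJ, against 32.1, 72.7 and 25.2 CPM in C57BL/6J, a log2 fold change of -2.52 ± 0.27 (edgeR adjusted p = 5.24e-07). Without C57BL/6J 10% fat replicate 2, the library at 72.7 CPM, it was -1.93 (adjusted p = 4.19e-07), and in limma it was -1.86. C1qb, at 21.4, 25.4, 30.7 and 29.0 CPM in CAST/EiJ, against 65.3, 72.7 and 54.6 CPM in C57BL/6J, was lower by 1.27 log2 units (log2 fold change -1.27 ± 0.21, edgeR adjusted p = 8.55e-05). Fcgr1 measured 1.99, 3.04, 2.56 and 3.47 CPM in CAST/EiJ, against 8.95, 6.11 and 4.90 CPM in C57BL/6J (-1.27 ± 0.25, edgeR adjusted p = 0.000551, and -0.66 in limma). Those calls and the other 6 held in all 30 alternatives run, the one without both libraries highest in oviduct RNA included. Within series 76 and 82, the ones that hold both groups, 9 of 10 members each were lower in CAST/EiJ. C1qa, C1qc, Csf1r, Cd68, Mrc1 and Mpeg1 had log2 fold changes between -1.15 and -0.88 with edgeR adjusted p between 0.000181 and 0.00538. Cd163 did not pass, at a log2 fold change of 1.12 ± 0.49 (edgeR adjusted p = 0.0786), and was at 0.31 (0.543) once CAST/EiJ 10% fat replicate 2, at 10.6 CPM, was left out.

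On 44% fat fewer members passed between the same strains, a share not above that of all genes called in either direction. In CAST/EiJ against C57BL/6J, 2 members were lower and 0 higher, where 29.5% of all genes tested differed and 15.2% were lower. Adgre1 measured 14.5, 14.8, 11.5 and 9.82 CPM in CAST/EiJ, against 18.6, 23.6, 25.5 and 28.3 CPM in C57BL/6J (log2 fold change -0.92 ± 0.25, edgeR adjusted p = 0.00716). Fcgr1 measured 4.57, 4.30, 2.33 and 2.70 CPM in CAST/EiJ, against 5.62, 6.68, 6.00 and 6.31 CPM in C57BL/6J (-0.82 ± 0.23, edgeR adjusted p = 0.0113). For both genes no library overlapped, as for 16.1% of all genes lower in CAST/EiJ, and both calls held in all 30 alternatives. The C1q chains had log2 fold changes of 0.20 ± 0.20 for C1qa, 0.03 ± 0.19 for C1qb and 0.16 ± 0.19 for C1qc (edgeR adjusted p = 0.481, 0.926 and 0.579), and Mrc1 of -0.02 ± 0.16 (0.929). Csf1r, Cd68 and Mpeg1 were at 0.24 ± 0.18, 0.35 ± 0.25 and 0.16 ± 0.22 (edgeR adjusted p = 0.359, 0.321 and 0.63), and Cd163 was at 0.96 ± 0.44 (0.113). Without both libraries highest in oviduct RNA, Adgre1 and Fcgr1 passed as before and Cd163 passed as higher in CAST/EiJ, at 1.08 (edgeR adjusted p = 0.0304). Within identifier series 76 and 82, 8 of 10 members each were higher in CAST/EiJ, and within series 90, 8 of 10 were lower.

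**Figure D4:**
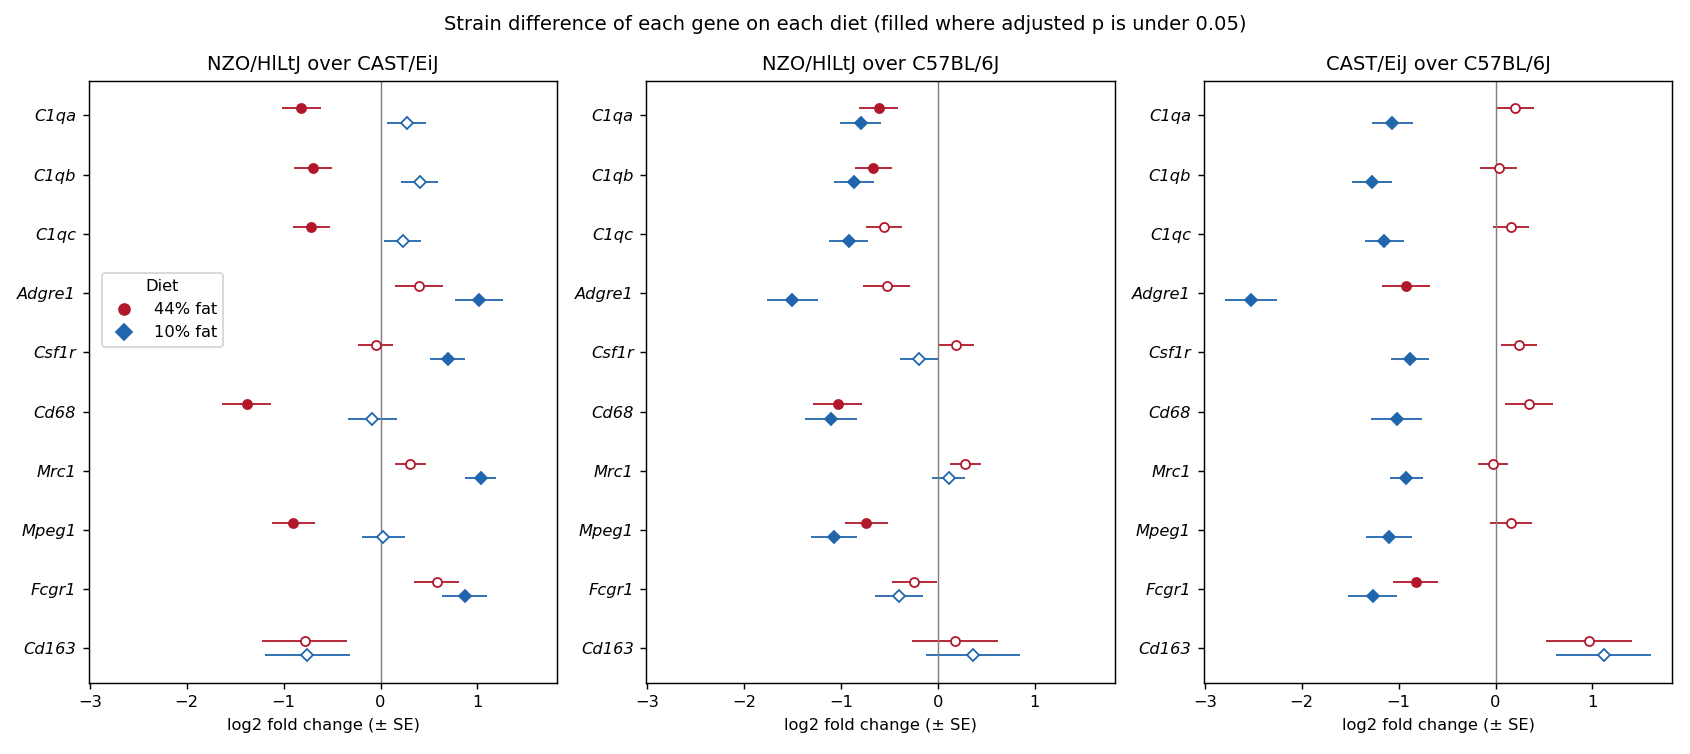
Log2 fold change between strains (horizontal axis, ± SE) on 44% fat (circles) and 10% fat (diamonds) for NZO/HlLtJ over CAST/EiJ, NZO/HlLtJ over C57BL/6J and CAST/EiJ over C57BL/6J, from edgeR. Filled symbols have an adjusted p under 0.05. In CAST/EiJ over C57BL/6J 9 genes are filled on 10% fat, all negative, and 2 on 44% fat.

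Cd68, Mpeg1, C1qa and C1qb passed as lower in NZO/HlLtJ than in C57BL/6J ovaries on both diets, and on 44% fat the call of Cd68 was the one of the 4 that held in all 30 alternatives. On 10% fat 6 of 10 members were lower in NZO/HlLtJ and 0 higher, where 10% of all genes tested differed and 5.54% were lower. Cd68 measured 17.6, 11.2, 24.5 and 21.4 CPM in NZO/HlLtJ, against 44.9, 40.3 and 35.4 CPM in C57BL/6J (log2 fold change -1.11 ± 0.27, edgeR adjusted p = 0.0102). Mpeg1 measured 65.04, 55.4, 88.5 and 86.2 CPM in NZO/HlLtJ, against 170.1, 165 and 132 CPM in C57BL/6J (-1.08 ± 0.24, edgeR adjusted p = 0.0052). No library overlapped for these genes, and the same held for the C1q chains and Adgre1, against 9.4% of all genes. C1qa was at -0.80 ± 0.21 (edgeR adjusted p = 0.0195), C1qb at -0.87 ± 0.21 (0.00901), C1qc at -0.92 ± 0.20 (0.00486) and Adgre1 at -1.50 ± 0.26 (0.000608). Without C57BL/6J 10% fat replicate 2, Adgre1 was at -0.91 (edgeR adjusted p = 0.00419). The call of C1qa was lost in 4 of 30 alternatives, which were the fit of only the groups compared and those without C57BL/6J 10% fat replicate 1, C57BL/6J 10% fat replicate 2 or NZO/HlLtJ 10% fat replicate 2, and that of Cd68 was lost without C57BL/6J 10% fat replicate 1. Within series 76 and 82, 9 and 7 of 10 members were lower in NZO/HlLtJ. Fcgr1, Csf1r, Mrc1 and Cd163 did not pass, at -0.40 ± 0.25, -0.19 ± 0.20, 0.11 ± 0.17 and 0.36 ± 0.48 (edgeR adjusted p = 0.352, 0.616, 0.76 and 0.718).

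On 44% fat 4 members were lower in NZO/HlLtJ than in C57BL/6J and 0 higher, where 12.6% of all genes tested differed and 6.55% were lower. Cd68 measured 14.5, 14.7, 18.02 and 18.2 CPM in NZO/HlLtJ, against 19.7, 36.6, 37.3 and 40.7 CPM in C57BL/6J (log2 fold change -1.03 ± 0.25, edgeR adjusted p = 0.00938). C1qa, C1qb and Mpeg1 were at -0.61 ± 0.20, -0.67 ± 0.19 and -0.74 ± 0.22 (edgeR adjusted p = 0.0476, 0.0263 and 0.0323). C1qc missed at -0.56 ± 0.19 (edgeR adjusted p = 0.0579), and Adgre1 was at -0.53 ± 0.24 (0.172), Fcgr1 at -0.24 ± 0.23 (0.548), Csf1r at 0.19 ± 0.18 (0.558), Mrc1 at 0.28 ± 0.16 (0.267) and Cd163 at 0.18 ± 0.44 (0.839). No library overlapped for the C1q chains and Cd68, as for 11.6% of all genes lower in NZO/HlLtJ. The call of C1qa was lost in 18 alternatives, that of Mpeg1 in 8 and that of C1qb in 5. With the identifier series in the fit 1 member passed, without both libraries highest in oviduct RNA 3 passed, with C1qa at -0.64 (edgeR adjusted p = 0.0668), and leaving out single libraries gave 1 to 5. Within series 76 and 90, the ones that hold both groups, 8 of 10 members each were lower in NZO/HlLtJ.

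Between NZO/HlLtJ and CAST/EiJ the members called are given for each diet, and the test of the difference of diet effects between these strains, given above, passed for 0 members. On 10% fat 4 members were higher in NZO/HlLtJ and 0 lower, where 33.5% of all genes tested differed, a share near that of the members, and 16.3% were higher. Mrc1 measured 52.2, 39.3, 51.5 and 55.2 CPM in NZO/HlLtJ, against 20.9, 25.9, 26.0 and 24.0 CPM in CAST/EiJ (log2 fold change 1.03 ± 0.16, edgeR adjusted p = 5.03e-05). Adgre1 was at 1.02 ± 0.25 (edgeR adjusted p = 0.00338), Csf1r at 0.69 ± 0.18 (0.00668) and Fcgr1 at 0.87 ± 0.24 (0.00742), and no library overlapped for any of the 4, as for 15.2% of all genes. These 4 calls held in all 30 alternatives, and within series 76 and 82, 7 and 9 of 10 members were higher in NZO/HlLtJ. C1qa, C1qb and C1qc did not pass, at 0.27 ± 0.20, 0.41 ± 0.19 and 0.23 ± 0.19 (edgeR adjusted p = 0.317, 0.114 and 0.377). Cd68 and Mpeg1 were at -0.08 ± 0.25 and 0.03 ± 0.22 (0.827 and 0.94), and Cd163 at -0.76 ± 0.44 (0.199), or 0.05 without CAST/EiJ 10% fat replicate 2.

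On 44% fat 5 other members were lower in NZO/HlLtJ than in CAST/EiJ and 0 higher, where 34.5% of all genes tested differed and 17.4% were lower. Cd68 measured 14.5, 14.7, 18.02 and 18.2 CPM in NZO/HlLtJ, against 40.2, 67.0, 35.7 and 27.9 CPM in CAST/EiJ (log2 fold change -1.38 ± 0.25, edgeR adjusted p = 0.000293). C1qa was at -0.82 ± 0.20 (edgeR adjusted p = 0.00338), C1qb at -0.70 ± 0.19 (0.00824), C1qc at -0.71 ± 0.19 (0.00603) and Mpeg1 at -0.90 ± 0.22 (0.00374). All libraries of NZO/HlLtJ were below all of CAST/EiJ for these 5 genes, as for 19% of all genes. Without CAST/EiJ 44% fat replicate 2 the log2 fold changes of C1qa, C1qb and C1qc were -0.52, -0.43 and -0.44, and C1qb missed with an edgeR adjusted p of 0.0509. Within series 76 and 90, 6 of 10 members each were lower in NZO/HlLtJ. Mrc1, Adgre1, Fcgr1 and Csf1r, the genes that were higher in NZO/HlLtJ on 10% fat, stood at 0.31 ± 0.16, 0.40 ± 0.24, 0.58 ± 0.23 and -0.05 ± 0.18 (edgeR adjusted p = 0.14, 0.223, 0.0613 and 0.859), and Cd163 at -0.78 ± 0.44 (0.182).

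Other leukocyte markers differed between the strains as well. The sum of Ptprc, Coro1a and Cd52, expressed by leukocytes in general, was 32.5 to 40.1 and 28.0 to 45.6 CPM in NZO/HlLtJ on 44% and 10% fat, 22.4 to 35.1 and 13.3 to 21.8 CPM in CAST/EiJ, and 40.8 to 50.5 and 45.6 to 62.1 CPM in C57BL/6J. All 3 genes were lower in CAST/EiJ than in C57BL/6J on 10% fat, where 38% of all genes tested differed and 19.1% were lower. In CAST/EiJ their sum was higher on 44% fat without overlap, although 0 of 3 passed for diet, where 0.624% of all genes passed. The monocyte markers Ccr2, Plac8, Ly6c2 and Chil3 summed to 8.86 to 19.3 CPM on 44% fat and 10.5 to 31.0 CPM on 10% fat in CAST/EiJ. On 44% and 10% fat these markers summed to 31.7 to 43.8 and 29.5 to 60.1 CPM in NZO/HlLtJ. In C57BL/6J they summed to 27.4 to 42.7 and 22.4 to 62.3 CPM. The part of other leukocytes in the change of the macrophage genes was not tested.

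**Figure D5:**
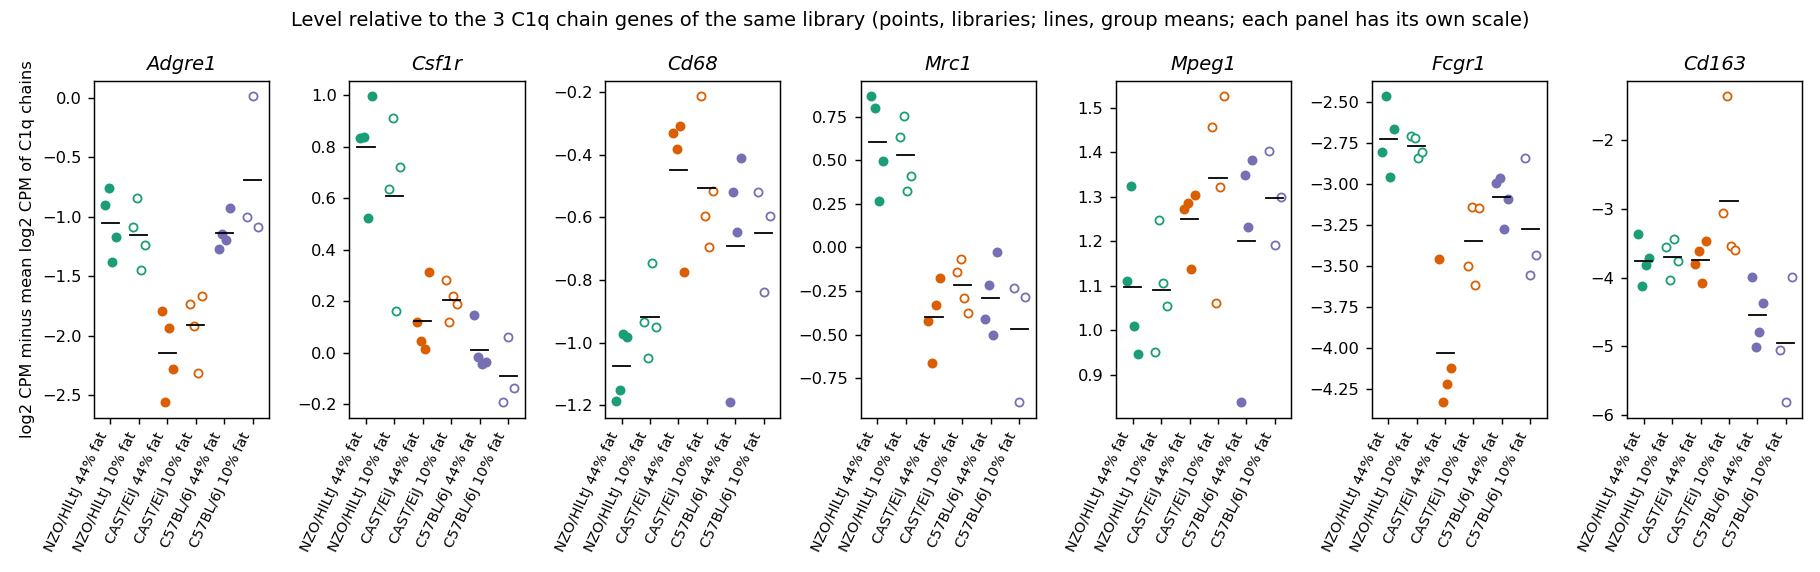
Level of 7 macrophage genes relative to C1q (vertical axis, log2 CPM minus the mean log2 CPM of the 3 C1q chains in the same library, each panel with its own scale). Points are libraries and lines are group means. Mrc1 and Csf1r lie highest in NZO/HlLtJ, and Adgre1 lies lowest in CAST/EiJ.

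Set against the C1q chains of the same library, Mrc1 and Csf1r had their highest group means in NZO/HlLtJ on both diets. The lowest group means on both diets were in CAST/EiJ for Adgre1 and Fcgr1. They were in NZO/HlLtJ for Cd68 and Mpeg1, and in C57BL/6J for Cd163. These are ratios and are given without a test. Mrc1 lay 0.61 ± 0.28 and 0.53 ± 0.20 log2 units above the C1q mean in NZO/HlLtJ on 44% and 10% fat, and below it in CAST/EiJ (-0.40 ± 0.20 and -0.22 ± 0.14) and in C57BL/6J (-0.29 ± 0.21 and -0.47 ± 0.36). No library of NZO/HlLtJ overlapped with a library of another strain, with a lowest value of 0.26 on 44% fat. Csf1r was at 0.80 ± 0.20 and 0.61 ± 0.32 in NZO/HlLtJ, 0.12 ± 0.13 and 0.20 ± 0.07 in CAST/EiJ, and 0.01 ± 0.09 and -0.09 ± 0.13 in C57BL/6J, although 1 NZO/HlLtJ library on 10% fat was at 0.16, within the range of CAST/EiJ.

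Adgre1 was lowest relative to C1q in CAST/EiJ. It stood at -1.05 ± 0.28 and -1.16 ± 0.25 log2 units in NZO/HlLtJ on 44% and 10% fat, at -2.14 ± 0.34 and -1.91 ± 0.29 in CAST/EiJ, and at -1.14 ± 0.15 and -0.69 ± 0.61 in C57BL/6J. Fcgr1 relative to C1q was -4.03 ± 0.39 in CAST/EiJ on 44% fat and -3.35 ± 0.24 on 10% fat, and Fcgr1 itself did not pass for diet. On 44% and 10% fat it was at -2.72 ± 0.21 and -2.77 ± 0.07 in NZO/HlLtJ, and at -3.08 ± 0.14 and -3.27 ± 0.38 in C57BL/6J. Cd68 was lowest in NZO/HlLtJ, at -1.07 ± 0.11 and -0.92 ± 0.13, against -0.45 ± 0.22 and -0.50 ± 0.21 in CAST/EiJ and -0.69 ± 0.35 and -0.65 ± 0.17 in C57BL/6J. Mpeg1 stayed between 1.09 and 1.34 log2 units above C1q in all 6 group means. Cd163 lay at -3.76 ± 0.31 and -3.70 ± 0.26 in NZO/HlLtJ on 44% and 10% fat, at -3.74 ± 0.26 and -2.89 ± 1.05 in CAST/EiJ, and at -4.54 ± 0.45 and -4.96 ± 0.92 in C57BL/6J.

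Ordered by mean CPM, the 6 groups fell into few distinct steps. For C1qa the order from low to high was CAST/EiJ 10% fat, NZO/HlLtJ 44% fat, NZO/HlLtJ 10% fat, C57BL/6J 44% fat, CAST/EiJ 44% fat and C57BL/6J 10% fat. The single pair of neighbours in that order without overlap between libraries was NZO/HlLtJ 10% fat and C57BL/6J 44% fat, at 34.3 ± 8.84 and 50.1 ± 3.09 CPM. Csf1r and Mrc1 each had 1 such step, between CAST/EiJ 10% fat, at 32.6 ± 4.46 and 24.2 ± 2.39 CPM, and the next group. For Cd68, Mpeg1, Fcgr1 and Cd163 every neighbouring pair overlapped.

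The components of the classical pathway that act after C1q did not pass for diet in CAST/EiJ. Of the proteases and components (C1ra, C1rb, C1s1, C1s2, C2, C4a, C4b and C3), 0 of 8 passed for diet, with a median log2 fold change of 0.02 beside -0.02 over all genes tested and 0.93 over the 10 members. C1s1 measured 109 ± 14.04 CPM on 44% fat and 94.4 ± 5.43 CPM on 10% fat, and C2, cleaved by activated C1s, 17.7 ± 5.32 and 13.9 ± 6.71 CPM. The pairs C1ra and C1rb, C1s1 and C1s2, and C4a and C4b are near copies, and their split is uncertain. C3, the central component, was at 205 ± 69.7 CPM on 44% fat and 1267 ± 1831 CPM on 10% fat, where the library highest in oviduct RNA set the mean. Between CAST/EiJ and C57BL/6J the 8 genes went both ways. On 10% fat 3 passed as higher and 4 as lower in CAST/EiJ, where 38% of all genes differed. On 44% fat 1 passed as higher and 2 as lower, where 29.5% of all genes differed. C2 was lower on both diets, at 17.7 ± 5.32 and 13.9 ± 6.71 CPM in CAST/EiJ on 44% and 10% fat. In C57BL/6J it was at 99.3 ± 33.1 and 99.4 ± 7.70 CPM (log2 fold changes of -2.49 ± 0.30 and -2.84 ± 0.32, edgeR adjusted p = 2.89e-06 and 1.18e-06).

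The alternative pathway regulator properdin (Cfp), which myeloid cells secrete, rose with C1q in CAST/EiJ, at 31.96 ± 11.7 CPM on 44% fat and 16.1 ± 3.07 CPM on 10% fat (log2 fold change 0.99 ± 0.19, edgeR adjusted p = 0.0218), and was 1 of 3 alternative pathway genes to do so. Among complement receptors 1 of 8 rose, the integrin chain Itgb2, a subunit of complement receptors 3 and 4, at 17.1 ± 6.09 CPM on 44% fat and 7.67 ± 1.47 CPM on 10% fat (1.15 ± 0.24, edgeR adjusted p = 0.0296). The receptors for C3a and C5a did not pass, with C3ar1 at 17.2 ± 4.30 and 9.70 ± 2.36 CPM and C5ar1 at 10.4 ± 2.64 and 5.35 ± 1.25 CPM. Of 4 Fc receptor genes other than Fcgr1, 3 rose. Fcgr3 measured 32.1 ± 14.1 CPM on 44% fat and 12.7 ± 1.52 CPM on 10% fat (1.34 ± 0.21), Fcgr2b, the inhibitory receptor, 19.1 ± 6.94 and 7.83 ± 1.56 CPM (1.28 ± 0.22), and Fcer1g, the signalling chain, 11.1 ± 3.92 and 5.44 ± 0.883 CPM (1.03 ± 0.20), with edgeR adjusted p of 0.0107, 0.011 and 0.0219 in this order. In a fit of the CAST/EiJ libraries alone Cfp, Itgb2, Fcgr3, Fcgr2b and Fcer1g did not pass, with Fcgr3 and Fcgr2b at edgeR adjusted p of 0.229 and 0.227. The call of Itgb2 was lost in 7 of 30 alternatives, limma and the fit with the identifier series among them. Without CAST/EiJ 44% fat replicate 2, 2 of 4 Fc receptor genes passed, and Cfp and Itgb2 did not. Without both libraries highest in oviduct RNA, 2 of 4 Fc receptor genes passed too.

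Of 12 further macrophage markers 2 rose in CAST/EiJ on 44% fat. They were Laptm5, a lysosomal membrane protein of leukocytes, at 44.0 ± 20.1 CPM on 44% fat and 19.3 ± 3.90 CPM on 10% fat, and Cd84, a receptor of the SLAM family, at 25.5 ± 10.4 and 10.9 ± 2.29 CPM. Of 6 myeloid regulators Tyrobp, a signalling adaptor, rose to 23.4 ± 11.4 CPM on 44% fat, against 10.6 ± 0.907 CPM on 10% fat, and the PU.1 gene Spi1 was at 6.01 ± 1.46 and 3.30 ± 0.768 CPM without passing. Of 8 scavenger receptors Stab1 rose, at 132 ± 9.45 CPM on 44% fat and 85.8 ± 8.69 CPM on 10% fat. Csf1 and Il34, the ligands of CSF1R, did not pass, with Csf1 at 21.9 ± 3.02 CPM on 44% fat and 22.2 ± 8.42 CPM on 10% fat. Without CAST/EiJ 44% fat replicate 2, 0 genes of these lists passed, and without both libraries highest in oviduct RNA Tyrobp did not. Laptm5, Cd84, Tyrobp and Stab1 did not pass in a fit of the CAST/EiJ libraries alone. The call of Tyrobp was lost in 5 of 30 alternatives, limma among them.

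Between strains the further markers did not all differ in the same direction. On 10% fat 8 of 12 were lower and 2 higher in CAST/EiJ than in C57BL/6J, where 38% of all genes differed. On 44% fat 3 were lower and 1 higher, where 29.5% of all genes differed. Ms4a7, a membrane protein of macrophages, measured 9.48 ± 0.867 CPM in NZO/HlLtJ, 0.424 ± 0.271 CPM in CAST/EiJ and 12.4 ± 2.71 CPM in C57BL/6J on 44% fat. On 10% fat Ms4a7 was at 0.162 ± 0.0784 CPM in CAST/EiJ, against 14.03 ± 4.25 CPM in C57BL/6J. Mertk, a receptor for dying cells, was at 48.8 ± 9.76 and 47.7 ± 7.83 CPM in CAST/EiJ on 44% and 10% fat, against 49.2 ± 6.99 and 45.7 ± 9.17 CPM in C57BL/6J, and did not pass on either diet. In NZO/HlLtJ against CAST/EiJ on 44% fat 4 of the 12 were higher, among them Siglec1 and Folr2, and 3 were lower, which were Cd84, Trem2 and Laptm5, where 34.5% of all genes differed. Siglec1, the sialic acid receptor of tissue macrophages, measured 27.02 ± 4.46 CPM in NZO/HlLtJ and 13.6 ± 3.51 CPM in CAST/EiJ there.

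After the group means were removed, the 10 genes still varied together between libraries to different degrees. Over 23 libraries Pearson's r was 0.96 for C1qa with C1qb and 0.97 for C1qb with C1qc. With C1qc, r was 0.88 for Mpeg1, 0.83 for Cd68, 0.80 for Csf1r, 0.64 for Fcgr1, 0.58 for Mrc1, 0.53 for Adgre1 and 0.28 for Cd163. Outside the set, the genes most like the C1q mean among 11641 genes with a mean of at least 5 CPM were Tyrobp (Pearson's r 0.92, Spearman's rho 0.89), Laptm5 (0.91 and 0.91), Fcer1g (0.89 and 0.81), Fcgr3 (0.87 and 0.85) and the cholesterol exporter Abcg1 (0.87 and 0.87). Without the 2 libraries farthest from the median of C1q, CAST/EiJ 44% fat replicate 2 and NZO/HlLtJ 10% fat replicate 2, Pearson's r was 0.87, 0.91, 0.81, 0.82 and 0.82 for these genes in the same order. The median r of all 11641 genes with C1q was 0.01, and the central 95% lay between -0.45 and 0.54. These values describe libraries that share groups and tissue composition, and no p is attached.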

How the data were processed

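Poly(A) RNA of whole ovaries was sequenced in 23 libraries. The authors deposited estimated counts per gene, of which 27.4% were not whole and were rounded here, and variance-stabilised log2 values, which served as an alternative input. The submitters' processing notes name GRCm38 and DESeq2. Aligner, counter, annotation and any strain-specific genome are not given in the sources used here. Counts were fitted in R 4.3.3 with edgeR 4.0.16 (quasi-likelihood, TMM factors, 6 group means, common biological coefficient of variation 0.268) after filterByExpr (minimum count 10, minimum total 15), which kept 20189 of 24716 genes (81.7%). P-values were adjusted by Benjamini-Hochberg over all genes tested within each of 13 comparisons, with a threshold of 0.05. Fold changes are log2 with SE, and CPM use TMM factors, with a prior count of 2 on the log2 scale. Alternatives were DESeq2 1.42.0, limma 3.58.1, other factors, no filter, only the groups compared, identifier series as a term, and libraries left out. The fit was tested on simulated data. Chi-square per degree of freedom lay between 12.4 and 219.7 for the 33 pairings of replicates, and none was counted as a repeat. Library totals were 31938792 to 45850830 counts. The SE of a fold change comes from edgeR's fit, whose estimate of the spread is shared over the 6 groups and between genes. Errors given as SD are the spread between libraries of a group.

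The members and gene lists were chosen with earlier results of these data known. All members are described in every group. From each list up to 4 genes could be named, those past the threshold with the smallest p and otherwise those with the highest mean CPM, and further genes named here were chosen after their values were seen. Likeness was Pearson's r over libraries after subtracting group means, for genes of at least 5 CPM.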

Additional observations from a re-analysis of the deposited data

Results flagged for a closer look

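Of 50 sets of 4 libraries (10 genes in 5 groups), 5 held a library far from the other 3 by Dixon's test at the 95% level, where chance gives about 1 in 20. In CAST/EiJ on 44% fat, replicate 2 stood above the others for C1qa at 89.4 CPM and for C1qb at 82.3 CPM. Mpeg1 was low in C57BL/6J 44% fat replicate 1, at 80.5 CPM, and high in NZO/HlLtJ 44% fat replicate 2, at 82.4 CPM. Cd163 was high in CAST/EiJ 10% fat replicate 2, at 10.6 CPM.

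The diet effect differed between CAST/EiJ and C57BL/6J by 1.60 log2 units for Adgre1, 1.27 for C1qa, 1.30 for C1qb and 1.31 for C1qc in edgeR's test of the difference itself, and each of these calls was lost under some of the 30 alternatives.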

How the results depend on the processing

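Of 10 members, the 6 called for diet in CAST/EiJ became 0 in a fit of only the groups compared, 3 without both libraries highest in oviduct RNA, and 0 to 7 with single libraries left out. The 4 called in NZO/HlLtJ against C57BL/6J on 44% fat became 1 with the library identifier series as a term and 1 to 5 with single libraries left out. The 4 called for the difference of diet effects between CAST/EiJ and C57BL/6J became 8 in DESeq2, 1 with the identifier series, 2 in limma on the authors' variance-stabilised values, 2 with no filter, 0 with only the groups compared, 0 without both oviduct-rich libraries, and 0 to 5 with single libraries left out. The 0 called for NZO/HlLtJ against CAST/EiJ diet effects became 3 in DESeq2. The cause was not tested, beyond the fewer libraries that some of these fits hold. Shares of all genes called are given for the main fit alone, so it is not shown whether calls of all genes changed alike. For diet in NZO/HlLtJ the number of members with a positive log2 fold change, 5, became 2 without 10% fat replicate 2 and 9 without 10% fat replicate 3, and in C57BL/6J it was 0 to 2 instead of 1, with no member called in any of these. Elsewhere values of the other sign, all of genes not called, were for diet in CAST/EiJ Cd163 at 0.032 in limma, 0.72 without the oviduct-rich libraries and -0.41 to 0.71 with single libraries left out. For CAST/EiJ against C57BL/6J on 44% fat, C1qb was at -0.0078 in limma and -0.058 without the oviduct-rich libraries, and leaving out single libraries gave -0.086 to 0.31 for C1qa, -0.23 to 0.13 for C1qb, -0.11 to 0.27 for C1qc, -0.13 to 0.30 for Mpeg1 and -0.17 to 0.086 for Mrc1. Csf1r ranged from -0.34 to 0.0022 for NZO/HlLtJ against C57BL/6J on 10% fat, and for NZO/HlLtJ against CAST/EiJ on 44% fat from -0.18 to 0.19, with 0.00075 under the identifier series. For NZO/HlLtJ against CAST/EiJ on 10% fat, Cd163 was at 0.045 and Mpeg1 at -0.072 without the oviduct-rich libraries, and leaving out single libraries gave -0.96 to 0.046 for Cd163, -0.24 to 0.10 for Cd68 and -0.072 to 0.15 for Mpeg1. No paired analysis was possible because the labels carry no replicate numbers. Depth limits Cd163 and Fcgr1 most, with as few as 50 and 83 counts in a library.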
